A study of Homo sapiens with 10 samples.

Results

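The human genome holds 39 HOX genes in 4 clusters, and all 39 had a row in both deposited expression tables, out of 23415 genes with a value in both. They were found by name (HOX, a cluster letter from A to D, and a number) and comprised 11 HOXA, 10 HOXB, 9 HOXC and 9 HOXD genes. Each stood on 1 row, and none had a status word in place of a value. HOX genes encode homeodomain transcription factors that set the identity of body segments along the head-to-tail axis. Within a cluster, low-numbered genes are used towards the head and high-numbered genes towards the tail, a rule called collinearity. In neural tissue the genes with low numbers mark the hindbrain, those in the middle the cervical to thoracic spinal cord and trunk neural crest, and those with the highest numbers lumbar and sacral levels. Polycomb proteins keep unused HOX genes silent, Trithorax proteins keep used ones active, and retinoic acid and CDX factors open the clusters during development.

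The cells were SH-SY5Y, a human neuroblastoma line of sympathetic neuroblast character, grown in DMEM/F12 medium with serum. Of 10 poly(A) RNA libraries, all harvested 72 h after treatment, 3 came from cells given LncND siRNA at 100 nM, which targets the long non-coding RNA LncND, and 3 from cells given scrambled siRNA. A further 2 came from cells given miR-143-3p mimic at 50 nM and 2 from cells given scrambled miRNA, and no dose is stated for either scrambled RNA. The title of the series links LncND to sequestration of a miRNA and to Notch signalling, and the comparisons asked what lowering LncND and adding miR-143-3p did to expression. The level of LncND itself was not analysed here. All values are FPKM, fragments scaled by transcript length and by the mapped fragments of the library, and each treatment has its own table, so the treatments share no control library.

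A mimic is a synthetic RNA duplex that stands in for a mature microRNA, and such a microRNA pairs through its seed (bases 2 to 8) with sites in the 3′ UTR of target transcripts. The mature sequence from RefSeq (chr5:149428978-149428998, plus strand, GRCh38.p14) is printed with the seed in capitals, since it defines the sites searched for in the HOX transcripts.
hsa-miR-143-3p: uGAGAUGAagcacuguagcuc
A site of 8 bases reads TCATCTCA, and sites of 7 bases read TCATCTC or CATCTCA. In the longest 3′ UTR of each gene in the GENCODE release 29 basic set, 9 of 39 HOX genes (23.1%) held at least 1 such site, against 22.0% of 19133 protein-coding genes. Of the 14 HOX genes whose level was tested with the mimic, 3 (21.4%) held a site, against 24.8% of 11216 tested genes. Those 3 sites are shown with the match in capitals, because all 3 genes fell with the mimic. They lie at chr2:176095580-176095603 (HOXD13), chr2:176132529-176132552 (HOXD8) and chr12:53990064-53990087 (HOXC10), plus strand, GRCh38.
HOXD13: gattgtggTCATCTCctcaatcct
HOXD8: gctgtgtgCATCTCAgacgtcggt
HOXC10: tctagtaaCATCTCAgaaatttca
The HOX gene with a site of 8 bases was HOXC11, at chr12:53977281-53977304, which was too low to be tested.
HOXC11: aggacaacTCATCTCAtctttccc
The other 5 HOX genes that fell with the mimic (HOXC5, HOXC8, HOXC9, HOXD10 and HOXD11) had no such site in the 3′ UTR searched. A match describes letters and was not tested as a site of action.

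Promoter windows in RefSeq (250 bases before to 50 after a gene's start, GRCh38.p14) were found for 20 of the 39 HOX genes, as 26 distinct windows, with HOXC4 and HOXC5 sharing 1. The CCAAT box (CCAAT on either strand), a core promoter element, stood in 17 of the 26 windows and in 6 of the 8 HOXD windows, against 34.6% of all 35116 windows. The retinoic acid receptor half-site, searched only in the exact letters AGGTCA on either strand, was found in 0 of the 26, against 13.8% of all windows. Of the 26, 16 belong to HOXA, and neither other spellings nor sequence outside the windows was searched. TGATNNAT, a composite site on which a HOX protein and its PBX partner can bind side by side, stood in 3 of 26 windows, those of HOXA2, HOXB1 and HOXD11, against 7.40% of all windows. No matches of different motifs overlapped in the HOX windows. The 150 bases before the start are printed for the HOXD genes that fell most with the mimic, for HOXD4, which had the largest rise with LncND siRNA on the log2(FPKM + 1) scale, and for the start shared by HOXC4 and HOXC5, with CCAAT (or its reverse complement) and TGATNNAT (or its reverse complement) in capitals. They lie at chr2:176092571-176092720 (HOXD13), chr2:176107130-176107279 (HOXD11), chr2:176116628-176116777 (HOXD10), chr2:176151400-176151549 (HOXD4) and chr12:54016738-54016887 (HOXC4 and HOXC5), all on the plus strand.
HOXD13: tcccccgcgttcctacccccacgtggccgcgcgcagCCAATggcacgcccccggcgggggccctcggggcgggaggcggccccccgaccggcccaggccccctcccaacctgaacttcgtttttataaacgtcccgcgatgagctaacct
HOXD11: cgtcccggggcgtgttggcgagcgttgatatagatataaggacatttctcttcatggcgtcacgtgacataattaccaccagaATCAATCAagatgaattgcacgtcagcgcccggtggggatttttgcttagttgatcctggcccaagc
HOXD10: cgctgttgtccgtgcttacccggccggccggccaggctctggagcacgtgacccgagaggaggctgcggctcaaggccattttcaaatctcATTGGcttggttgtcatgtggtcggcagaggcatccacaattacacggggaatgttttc
HOXD4: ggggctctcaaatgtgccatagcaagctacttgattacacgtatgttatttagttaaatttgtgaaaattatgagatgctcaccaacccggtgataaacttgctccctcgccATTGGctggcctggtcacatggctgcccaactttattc
HOXC4 and HOXC5: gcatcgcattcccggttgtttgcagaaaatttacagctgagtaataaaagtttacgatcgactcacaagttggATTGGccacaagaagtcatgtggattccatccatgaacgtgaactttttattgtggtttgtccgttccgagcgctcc
The capitals in HOXD13, HOXD10, HOXD4 and the shared HOXC4 and HOXC5 stretch are CCAAT boxes, and those in HOXD11 are the HOX-PBX composite. The median observed-over-expected CpG ratio was 0.869 over 8 HOXD windows, against 0.814 over 16 HOXA windows and 0.579 over all windows. The 1 HOXB window had 0.436 and the 1 HOXC window 0.755. HOXD4 was an exception in its cluster, with a ratio of 0.244.

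In control cells the expressed HOX genes all belonged to the HOXC and HOXD clusters. Taking a mean of at least 1 FPKM as expressed, 13 of 39 HOX genes (33.3%) were expressed with scrambled siRNA, against 53.1% of all genes: HOXC4, HOXC5, HOXC6, HOXC8, HOXC9, HOXC10, HOXD3, HOXD4, HOXD8, HOXD9, HOXD10, HOXD11 and HOXD13. With scrambled miRNA the same 13 and HOXD1 were expressed. The HOXC and HOXD clusters summed to 33.2 to 34.4 and 33.4 to 35.7 FPKM in the scrambled siRNA libraries, with overlapping ranges. In the scrambled miRNA libraries HOXC was higher, with 47.7 and 49.7 FPKM against 38.7 and 39.3 for HOXD. The 21 HOXA and HOXB genes together summed to 0.0408 to 0.129 FPKM in the control libraries and to at most 0.103 FPKM in the treated ones. Of their 126 siRNA table values and 84 miRNA table values, 15 and 12 stood above the lowest listed value of 0.001, which takes the place of 0, and the highest was 0.0778 FPKM. Neither cluster came near 1 FPKM in any library, treated or not.

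**Figure D1:**
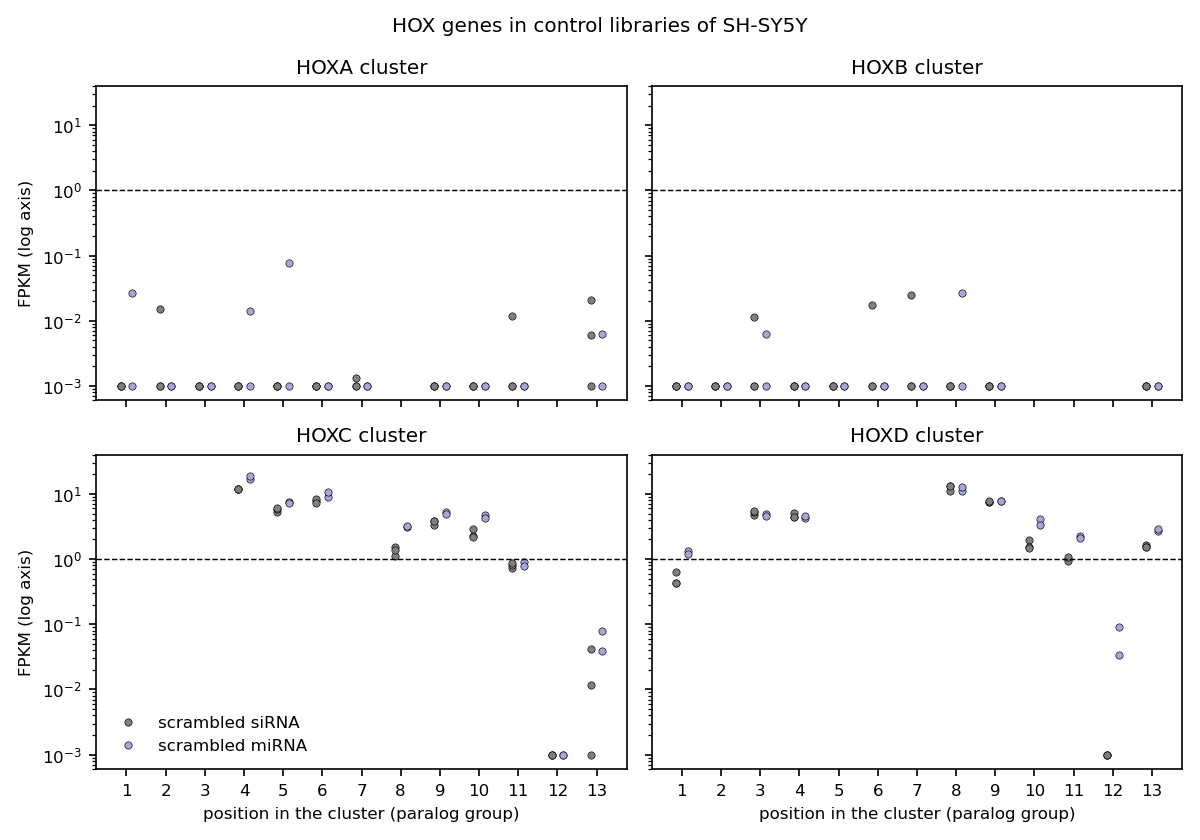
FPKM (log axis) of each HOX gene in the 3 scrambled siRNA and 2 scrambled miRNA libraries, by cluster and by position in the cluster; each point is 1 library, 0.001 is the lowest listed value, and the dashed line marks 1 FPKM. HOXA and HOXB points reach at most 0.0778, while HOXC4 to HOXC10 and most HOXD genes lie above 1 FPKM, with gaps at HOXC12 and HOXD12.

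Along HOXC (chromosome 12, 54332575 to 54449814 in hg19), the highest level was at the low-numbered end and the lowest at the high-numbered end, though not step by step. HOXC4, which marks cervical levels, had 11.9 ± 0.151 FPKM (SD, n = 3) with scrambled siRNA and 17.9 ± 0.994 (n = 2) with scrambled miRNA. HOXC10, a lumbar gene, had 2.43 ± 0.396 and 4.53 ± 0.366 FPKM. HOXC8, which marks the boundary of brachial and thoracic levels, was an exception, lower than HOXC9 and HOXC10 in both sets of controls with 1.33 ± 0.211 and 3.17 ± 0.118 FPKM. HOXC11 stayed below 1 FPKM in every library, at 0.739, 0.820 and 0.879 with scrambled siRNA and 0.898 and 0.797 with scrambled miRNA. HOXC12 was listed at 0.001 in all 10 libraries, and HOXC13, a gene of hair and nail, did not pass 0.0779 FPKM. The rows of HOXC4, HOXC5 and HOXC6 begin at the same base (54410641) and overlap over 13966 bp or more, so the split of reads among these 3 genes is uncertain.

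HOXD (chromosome 2, 176957531 to 177055635 in hg19) had no such slope. Its highest gene was the central HOXD8, with 12.6 ± 1.17 FPKM (SD, n = 3) and 11.9 ± 1.08 (n = 2), followed by its neighbour HOXD9 with 7.58 ± 0.273 and 7.83 ± 0.0142. HOXD3 and HOXD4, hindbrain and cervical genes, had 5.18 ± 0.322 and 4.61 ± 0.380 FPKM with scrambled siRNA and 4.77 ± 0.208 and 4.46 ± 0.205 with scrambled miRNA. The tail-end gene HOXD13, known for its role in the digits, was expressed at 1.59 ± 0.0704 and 2.78 ± 0.140 FPKM, while HOXD12 beside it was at 0.001 in all 3 scrambled siRNA libraries and at 0.0903 and 0.0342 with scrambled miRNA. HOXD1, at the head end, had 0.437, 0.424 and 0.635 FPKM in the scrambled siRNA libraries and 1.31 and 1.21 in the scrambled miRNA libraries.

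Ordered by level with scrambled siRNA, HOXD8 and HOXC4 led, and their library ranges overlapped. HOXC6 (7.83 FPKM) and HOXD9 (7.58) overlapped next, then HOXC5 (5.70) with HOXD3 (5.18) and HOXD3 with HOXD4 (4.61). HOXC9 (3.69), HOXC10 (2.43) and HOXD10 (1.65) each stood apart from the gene above, HOXD10 overlapped HOXD13 (1.59), and HOXC8 (1.33) and HOXD11 (1.01) closed the order without overlap. Among all expressed genes these are modest levels: HOXD8 lay above 54.2% of them and HOXD11 above 0.104%. With scrambled miRNA the order was HOXC4, HOXD8, HOXC6, HOXD9, HOXC5, HOXC9, HOXD3, HOXC10, HOXD4, HOXD10, HOXC8, HOXD13, HOXD11 and HOXD1, and the only neighbours whose ranges overlapped were HOXD3 with HOXC10 and HOXC10 with HOXD4. Several genes stood higher in the scrambled miRNA controls than in the scrambled siRNA controls. Among them were HOXD1 (1.26 against 0.499 FPKM), HOXC8 (3.17 against 1.33), HOXD10 (3.74 against 1.65) and HOXD11 (2.20 against 1.01). HOXC10 (4.53 against 2.43), HOXD13 (2.78 against 1.59) and HOXC4 (17.9 against 11.9) did likewise. HOXD3 (4.77 against 5.18), HOXD4 (4.46 against 4.61) and HOXD8 (11.9 against 12.6) stood somewhat lower. HOXD9 (7.83 against 7.58) and HOXC11 (0.847 against 0.813) stood at much the same level. The tables were normalized apart and these differences were not tested.

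With LncND siRNA, 8 of the 13 tested HOX genes rose and 0 fell. The risers were HOXC4, HOXC6, HOXC8 and HOXC9 in one cluster and HOXD4, HOXD8, HOXD9 and HOXD10 in the other, by 1.11 to 1.60 times in mean FPKM. Across all 12601 genes tested, 36.6% rose and 30.3% fell, so that 66.9% were called. The share of HOX genes called (61.5%) was thus near the background, and the whole of it was in the upward direction. The median HOX change was 0.24 on the log2(FPKM + 1) scale, against 0.024 over all genes. Under median-ratio scaling and under quantile normalization 7 HOX genes rose and 0 fell, with HOXC6 lost in the former (adjusted p 0.0690) and HOXD10 in the latter (adjusted p 0.291). LncND siRNA replicate 1 stood apart in its FPKM total, 1678230 against at most 478709 in the other libraries, and without it 8 HOX genes rose and 0 fell. Calls are from limma at a Benjamini-Hochberg adjusted p under 0.05, with genes entering the test from a mean of 1 FPKM upward, and changes are log2(FPKM + 1) ± SE.

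Among the genes that passed the filter of 1 FPKM, the 3 largest changes were in HOXD4, HOXD8 and HOXC8. HOXD4, a hindbrain and cervical gene with a known retinoic acid response, had 4.39, 5.05 and 4.39 FPKM with scrambled siRNA and 6.89, 7.80 and 7.42 with LncND siRNA (0.58 ± 0.061, adjusted p 1.63e-05). HOXD8 had 13.2, 11.2 and 13.2 FPKM in controls and 19.5, 18.0 and 17.0 with LncND siRNA (0.50 ± 0.068, adjusted p 9.90e-05). HOXC8 had 1.51, 1.10 and 1.38 FPKM against 2.08, 2.21 and 1.74 (0.37 ± 0.084, adjusted p 0.00299). In each of these genes every treated library lay above every control library. HOXC4 moved from 11.8, 11.7 and 12.0 FPKM to 14.6, 15.2 and 14.6 (0.30 ± 0.037, adjusted p 5.03e-05). HOXD9, a gene of trunk and limb, moved from 7.44, 7.40 and 7.89 to 9.56, 9.91 and 9.12 FPKM (0.30 ± 0.045, adjusted p 2.37e-04). HOXC9, a thoracic gene linked to the differentiation of neuroblastoma cells, moved from 3.89, 3.31 and 3.86 to 4.76, 4.65 and 4.40 FPKM (0.26 ± 0.060, adjusted p 0.00326). The groups did not overlap in these 3 genes either.

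The remaining calls were smaller on the log2(FPKM + 1) scale and less stable. In mean FPKM, HOXD10 rose 1.29 times, more than HOXC4 and HOXC9 (1.25 each) and HOXD9 (1.26). HOXD10, a lumbar gene, had 1.93, 1.53 and 1.48 FPKM in controls and 1.98, 2.27 and 2.12 with LncND siRNA (0.24 ± 0.075, adjusted p 0.0158). HOXC6, a brachial gene, had 7.90, 8.23 and 7.36 against 8.67, 8.91 and 8.51 FPKM (0.14 ± 0.047, adjusted p 0.0262). The groups do not overlap, but the intervals between them are narrow. HOXD10 lost its call without LncND siRNA replicate 2 (adjusted p 0.0570), scrambled siRNA replicate 2 (0.0586) or scrambled siRNA replicate 3 (0.0592), and HOXC6 without LncND siRNA replicate 2 (0.0869), scrambled siRNA replicate 1 (0.0560) or scrambled siRNA replicate 3 (0.117). In all, 8 of 13 HOX genes had every LncND siRNA library above every control, against 38.7% of all genes tested, and 0 had every one below, against 32.2%.

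The other 5 tested genes of the expressed clusters gave no call with LncND siRNA. HOXC5 had 5.29, 5.78 and 6.03 FPKM in controls and 5.62, 6.15 and 5.33 with LncND siRNA, and HOXC10 had 2.23, 2.17 and 2.88 against 2.40, 2.80 and 2.08. HOXD11 had 1.01, 0.934 and 1.09 FPKM against 0.983, 1.21 and 0.894, and HOXD13 had 1.67, 1.54 and 1.55 against 1.70, 1.57 and 1.62. Treated and control libraries interleave in all 4 of these genes, with changes from 9.0e-06 (HOXC5) to 0.026 ± 0.056 (HOXD13, adjusted p 0.701). HOXD3, the neighbour of HOXD4, had the one negative value, 4.81, 5.32 and 5.41 FPKM against 4.29, 5.29 and 4.84 (-0.092 ± 0.068, adjusted p 0.253). The ratio of HOXD4 to HOXD3 FPKM, which does not depend on the library's scaling, was 0.812 to 0.949 in the controls and 1.47 to 1.61 with LncND siRNA.

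HOXD1 and HOXC11 fell below the filter in the siRNA table, with means of 0.855 and 0.730 FPKM over its libraries. HOXD1 had 0.437, 0.424 and 0.635 FPKM in controls and 1.04, 1.35 and 1.24 with LncND siRNA, 2.43 times the control mean. With the filter lowered to 0.3 FPKM it rose by 0.56 ± 0.077 (adjusted p 1.45e-04). Its row shares 380 bp with HOXD-AS1, and the strand setting of the counting is not stated. HOXC11 had 0.739, 0.820 and 0.879 FPKM against 0.632, 0.606 and 0.705, and gave -0.14 ± 0.057 with the lowered filter (adjusted p 0.0586). Its row shares 1831 bp with HOTAIR.

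**Figure D2:**
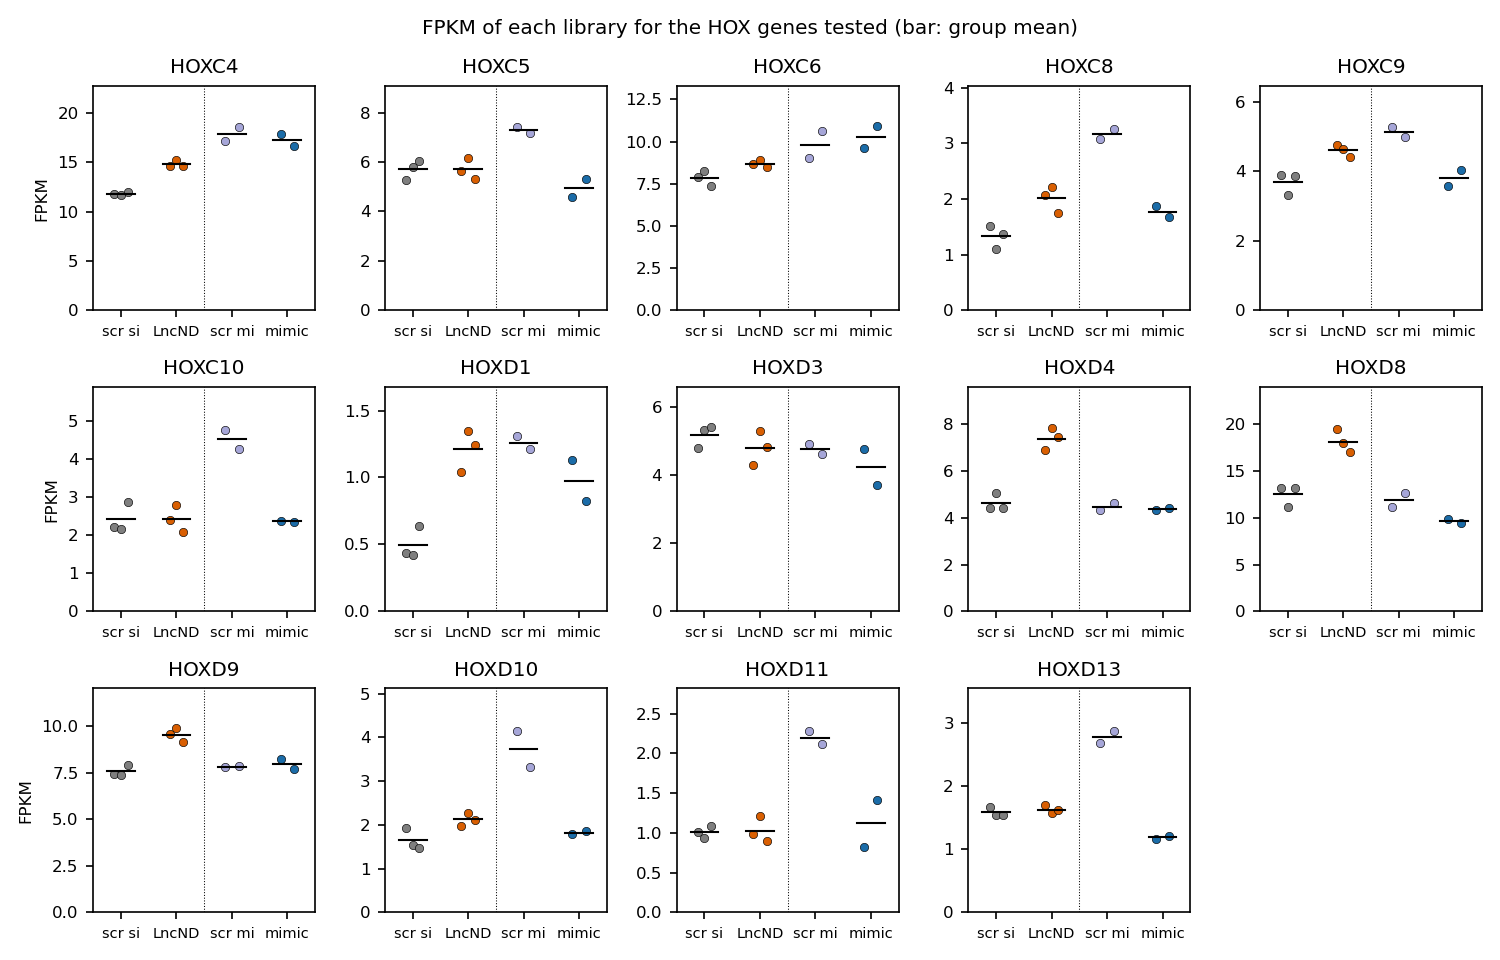
FPKM of each library for the 14 HOX genes tested in at least 1 comparison (scr si, scrambled siRNA; LncND, LncND siRNA; scr mi, scrambled miRNA; mimic, miR-143-3p mimic); points are libraries, bars are group means, axes start at 0, and the dotted line separates tables that were normalized apart. HOXD4 and HOXD8 stand clear of their controls with LncND siRNA, and HOXD10, HOXC10 and HOXD13 stand well below their controls with the mimic.

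With the miR-143-3p mimic the direction was the opposite: 8 of the 14 tested HOX genes fell and 0 rose. The genes that fell were HOXC5, HOXC8, HOXC9, HOXC10, HOXD8, HOXD10, HOXD11 and HOXD13, to between 0.429 and 0.813 of the control mean. Across all 12558 genes tested, 38.6% fell and 24.6% rose, so that 63.3% were called, near the 57.1% of HOX genes. The median HOX change was -0.31, against -0.062 over all genes. With another scaling of the libraries the split of all calls moved from 3094 up and 4853 down to 3934 and 4049 (median-ratio) or 4145 and 3861 (quantile), while the 8 HOX genes all still fell under both.

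The 4 largest falls were at positions 10 to 13. HOXD13 had 2.68 and 2.88 FPKM with scrambled miRNA and 1.17 and 1.21 with the mimic (-0.79 ± 0.082, adjusted p 2.88e-05). HOXD10 had 4.14 and 3.33 FPKM against 1.79 and 1.85 (-0.74 ± 0.094, adjusted p 9.56e-05). HOXC10 had 4.78 and 4.27 FPKM against 2.38 and 2.36 (-0.71 ± 0.077, adjusted p 3.61e-05). In these 3 genes the mimic libraries lay within a few hundredths of an FPKM of each other and far below both scrambled miRNA controls. HOXD11, a gene of forearm and kidney, had 2.28 and 2.12 FPKM in controls and 0.822 and 1.42 with the mimic (-0.61 ± 0.13, adjusted p 0.00227), with the mimic libraries well apart from each other. All 4 genes stood higher with scrambled miRNA than with scrambled siRNA. Their mimic means beside the scrambled siRNA means were 1.19 and 1.59 FPKM (HOXD13), 1.82 and 1.65 (HOXD10), 2.37 and 2.43 (HOXC10) and 1.12 and 1.01 (HOXD11). These values come from tables normalized apart and were not tested.

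The other 4 genes that fell lie nearer the head end. HOXC8 had 3.08 and 3.25 FPKM in controls and 1.87 and 1.68 with the mimic (-0.59 ± 0.080, adjusted p 1.64e-04). HOXC5 had 7.42 and 7.18 FPKM against 4.60 and 5.30 (-0.48 ± 0.073, adjusted p 3.17e-04). HOXC9 had 5.28 and 4.98 FPKM against 3.57 and 4.03 (-0.35 ± 0.075, adjusted p 0.00247). Both mimic libraries lay below both controls in each. HOXD8 had 11.2 and 12.7 FPKM against 9.91 and 9.46 (-0.27 ± 0.068, adjusted p 0.00596), and lost its call without scrambled miRNA replicate 2 (-0.19, adjusted p 0.0692).

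The other 6 tested genes gave no call with the mimic. HOXC4 had 17.2 and 18.6 FPKM in controls and 17.9 and 16.7 with the mimic, and HOXC6 had 9.03 and 10.6 against 9.63 and 10.9. HOXC5, whose row overlaps both, fell while they did not. HOXD9 had 7.82 and 7.84 FPKM against 8.23 and 7.72, and HOXD4 had 4.32 and 4.61 against 4.31 and 4.43. HOXD3 had 4.91 and 4.62 FPKM against 4.78 and 3.71 (-0.14 ± 0.096, adjusted p 0.218). HOXD1 had 1.31 and 1.21 against 1.13 and 0.823 (-0.20 ± 0.10, adjusted p 0.118), without overlap. HOXD3 and HOXD1 passed when mimic replicate 1 was left out (adjusted p 0.0143 and 0.0317). Counting HOXD1, 9 of 14 HOX genes had both mimic libraries below both controls, against 48.2% of all genes tested, and 0 had both above, against 33.7%. HOXC11, below the filter, had 0.898 and 0.797 FPKM in controls and 0.880 and 0.382 with the mimic.

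**Figure D3:**
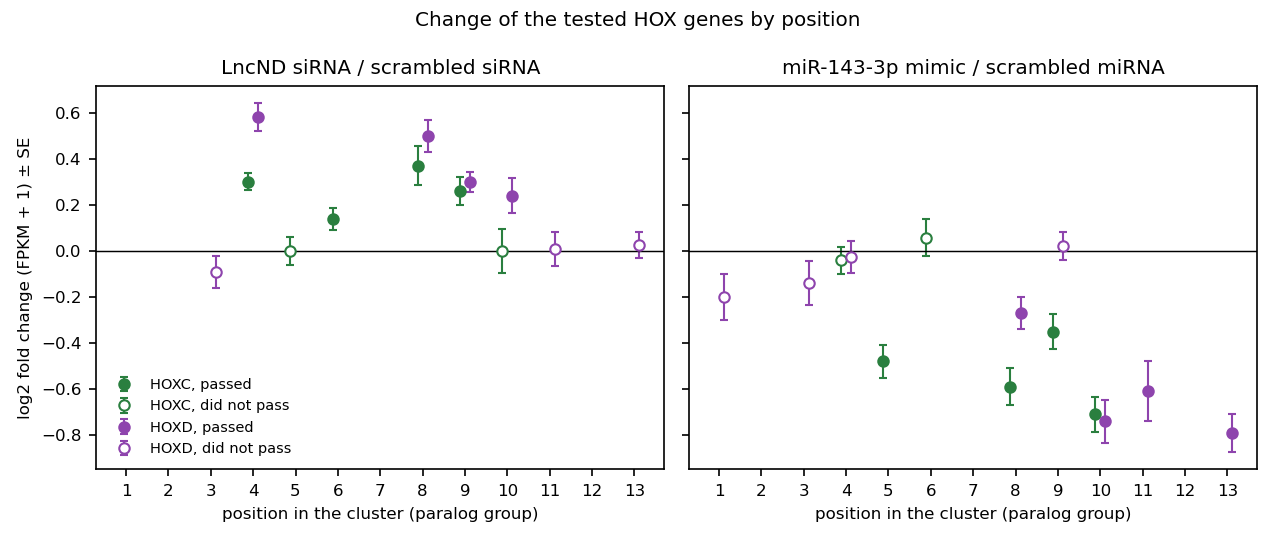
Change of each tested HOX gene on the log2(FPKM + 1) scale (points, with SE as bars) by position in the cluster, for LncND siRNA (left) and the miR-143-3p mimic (right); green is HOXC, purple is HOXD, and filled points passed an adjusted p of 0.05. The tested risers with LncND siRNA lie between positions 4 and 10, with HOXD4 highest at 0.58. HOXD1 was below the filter in that comparison and is not shown on the left. The lowest points with the mimic lie at positions 10 to 13, down to -0.79 for HOXD13.

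The calls were also counted by position. Genes were grouped by the usual division into anterior (1 to 3), central (4 to 8) and posterior (9 to 13). With LncND siRNA, 5 of 6 central, 3 of 6 posterior and 0 of 1 anterior genes tested rose, against 36.6% of all genes. The anterior gene HOXD1, below the filter in the siRNA table, is not in that count, though its mean FPKM was 2.43 times the control mean. With the mimic, 3 of 6 central, 5 of 6 posterior and 0 of 2 anterior genes fell, against 38.6% of all genes. The median change of the central genes was 0.33 with LncND siRNA and -0.16 with the mimic, and that of the posterior genes 0.13 and -0.66. This grouping was chosen with the values known and carries no test. Of the 13 genes tested in both comparisons, HOXC8, HOXC9, HOXD8 and HOXD10 rose with LncND siRNA and fell with the mimic, HOXC4, HOXC6, HOXD4 and HOXD9 rose with LncND siRNA and gave no call with the mimic, and HOXC5, HOXC10, HOXD11 and HOXD13 fell with the mimic and gave no call with LncND siRNA. HOXD3 was called in neither.

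The difference of both effects (LncND siRNA against its control, minus mimic against its control) was tested in 1 fit of all 10 libraries. It was positive and passed in 11 of 13 HOX genes (84.6%), against 38.1% of 12327 genes, where 22.0% passed in the negative direction and 60.2% in either. The median HOX difference was 0.61, against 0.080 over all genes (-0.042 with quantile normalization). HOXD10 had the largest difference (0.99 ± 0.12, adjusted p 1.74e-05), ahead of HOXC8 (0.96 ± 0.12, adjusted p 2.04e-05) and HOXD13 (0.81 ± 0.087, adjusted p 3.99e-06). HOXD8 (0.77), HOXC10 (0.71), HOXD11 (0.62), HOXC9 (0.61), HOXD4 (0.60), HOXC5 (0.48), HOXC4 (0.34) and HOXD9 (0.27) passed as well. HOXC6 (0.079 ± 0.096, adjusted p 0.496) and HOXD3 (0.051 ± 0.13, adjusted p 0.744) were the members that did not pass.

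Within-library proportions, which do not depend on a library's scaling, are given without a test. Unlike the calls, the share of positions 10 to 13 moved the same way in both treatments, below that of the controls. Positions 10 to 13 made up 10.6% to 11.3% of the summed HOXC and HOXD FPKM with scrambled siRNA and 9.13% to 9.66% with LncND siRNA. They made up 15.1% and 17.3% with scrambled miRNA and 9.66% and 10.2% with the mimic. The sum of these genes overlapped between the siRNA groups (7.04 to 7.90 FPKM in controls and 7.48 to 8.49 with LncND siRNA), while the total over both clusters went from 66.6 to 70.1 up to 81.7 to 87.9 FPKM. With the mimic both sums were lower, from 15.0 and 13.5 to 7.05 and 7.32 FPKM at positions 10 to 13 and from 86.5 and 89.0 to 73.0 and 72.1 over both clusters. The ratio of HOXD13 to HOXD9 was 0.343 and 0.367 with scrambled miRNA, 0.142 and 0.157 with the mimic, 0.196 to 0.224 with scrambled siRNA and 0.159 to 0.178 with LncND siRNA. The cut at position 10 was chosen with the values known. From position 9 on, which adds HOXC9 and HOXD9, the share was 26.6% to 28.0% with scrambled siRNA, 25.7% to 26.2% with LncND siRNA, 29.5% and 32.5% with scrambled miRNA and 25.8% and 26.5% with the mimic. With either cut the scrambled miRNA libraries stood above all others, by less with the wider one.

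**Figure D4:**
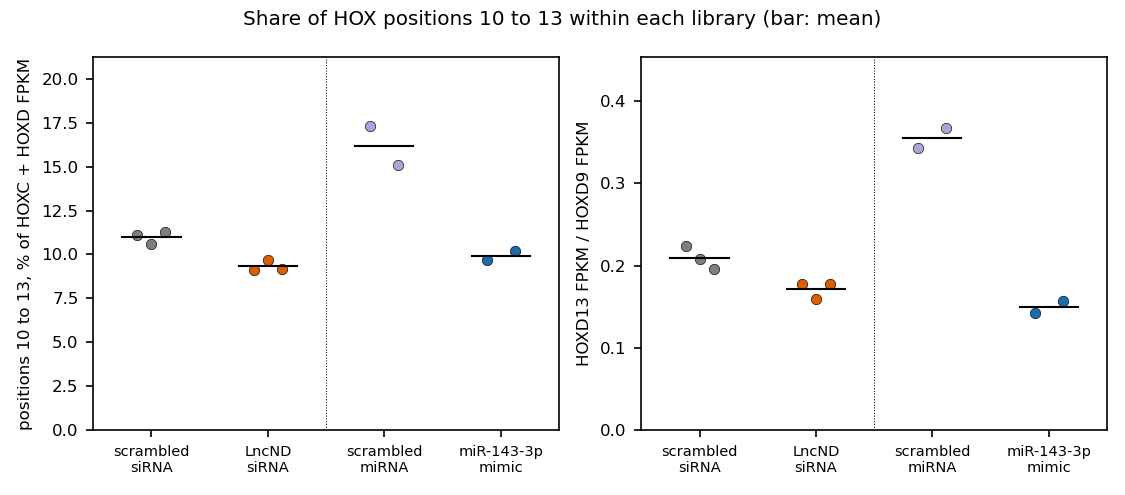
Left, percent of summed HOXC and HOXD FPKM from genes at positions 10 to 13 in each library; right, ratio of HOXD13 to HOXD9 FPKM in each library; points are libraries, bars are group means, and both axes start at 0. The scrambled miRNA libraries are highest in both plots, at 15.1% and 17.3% and at ratios of 0.343 and 0.367.

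Of the noncoding RNA genes listed from the clusters, 3 reached a mean of 1 FPKM, all in HOXC and HOXD. HOTAIR (chromosome 12, 54356091 to 54368740), a long noncoding RNA between HOXC12 and HOXC11 whose row overlaps that of HOXC11 and that has been reported to bind polycomb complexes, had 2.29, 2.53 and 3.07 FPKM with scrambled siRNA and 2.83, 3.43 and 3.32 with LncND siRNA (0.21 ± 0.085, adjusted p 0.0489), with overlapping groups. It fell from 2.00 and 2.02 to 1.43 and 1.26 FPKM with the mimic (-0.36 ± 0.086, adjusted p 0.00465). HOXD-AS1 (chromosome 2, 177037923 to 177053686), between HOXD3 and HOXD1, rose from 5.55 ± 0.179 to 6.55 ± 0.302 FPKM (SD, n = 3) with LncND siRNA (0.20 ± 0.047, adjusted p 0.00320) and had 5.87 ± 0.102 against 5.22 ± 0.399 (n = 2) with the mimic (adjusted p 0.0950). HOXD-AS2 (176999568 to 177001826), beside HOXD8, differed from its neighbour in direction with LncND siRNA. It fell in both comparisons, from 9.67 ± 0.927 to 8.11 ± 0.519 FPKM (-0.23 ± 0.066, adjusted p 0.0121) and from 8.87 ± 0.211 to 6.75 ± 0.0703 (-0.35 ± 0.059, adjusted p 5.92e-04).

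Genes flanking the clusters did not all follow them. Counting noncoding rows and flanking genes together, 6 of 12 tested rose and 3 fell with LncND siRNA (median 0.18), where 36.6% of all genes rose and 30.3% fell (median 0.024). With the mimic 2 rose and 6 fell (median -0.17), where 24.6% of all genes rose and 38.6% fell (median -0.062). Beside HOXC, CALCOCO1 rose in both comparisons (0.31 ± 0.054, adjusted p 5.16e-04, and 0.25 ± 0.054, adjusted p 0.00308), and so did SMUG1 (0.25 ± 0.039 and 0.31 ± 0.081), while ATP5G2 fell in both (-0.28 ± 0.055, adjusted p 0.00110, and -0.20 ± 0.049, adjusted p 0.00612). Beyond the HOXD1 end, MTX2 went the way of the cluster, from 54.1 to 68.1 FPKM with LncND siRNA (0.33 ± 0.041, adjusted p 6.18e-05) and from 68.4 to 58.7 with the mimic (-0.22 ± 0.046, adjusted p 0.00225). KIAA1715, beyond the HOXD13 end, fell with the mimic (-0.35 ± 0.060, adjusted p 6.09e-04) and gave no call with LncND siRNA. SNX11, beside the silent HOXB cluster, rose with LncND siRNA (0.50 ± 0.040, adjusted p 2.35e-06), and CBX1 there fell in both (-0.31 and -0.21).

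HOX proteins bind DNA with TALE homeodomain partners of the PBX, MEIS and PKNOX families. Of the 9 TALE genes listed, 8 passed the filter of 1 FPKM and were tested. PKNOX2 did not, with means of 0.0667 FPKM with scrambled siRNA and 0.154 with scrambled miRNA. MEIS2 stood highest, at 103 FPKM with scrambled siRNA. With LncND siRNA 2 of 8 rose and 4 fell (median -0.033), against 36.6% and 30.3% of all genes (median 0.024). With the mimic 3 of 8 rose and 0 fell (median 0.050), against 24.6% and 38.6% (median -0.062). MEIS2 fell from 103 to 82.1 FPKM with LncND siRNA (-0.33 ± 0.037, adjusted p 2.39e-05) and rose from 66.6 to 94.8 with the mimic (0.50 ± 0.042, adjusted p 7.53e-06), and MEIS1 did likewise (-0.19 ± 0.050 and 0.22 ± 0.060). MEIS3 rose in both (0.56 ± 0.040 and 0.13 ± 0.050), and PBX4 rose with LncND siRNA (0.25 ± 0.058).

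Polycomb and Trithorax genes and related chromatin regulators were counted as 1 list. With LncND siRNA 14 of 28 fell and 3 rose (median -0.13), against 30.3% and 36.6% of all genes (median 0.024). With the mimic 13 fell and 6 rose (median -0.10), near the 38.6% and 24.6% of all genes (median -0.062). The PRC2 methyltransferase EZH2 fell from 41.4 to 25.7 FPKM with LncND siRNA (-0.67 ± 0.064, adjusted p 7.84e-06) and from 31.3 to 23.7 with the mimic (-0.39 ± 0.048, adjusted p 8.32e-05). PHF19, a PRC2 accessory protein, fell in both (-0.75 ± 0.056 and -0.61 ± 0.067). Among PRC1 genes, PHC1 fell with LncND siRNA (-0.53 ± 0.048) and rose with the mimic (0.29 ± 0.048), while CBX8 rose with LncND siRNA (0.36 ± 0.039). RBBP7 fell by 0.51 with the mimic. The summed level of the list went from 647 to 655 down to 561 to 575 FPKM with LncND siRNA, and from 650 and 662 to 592 and 597 with the mimic. Its part in the HOX changes was not tested.

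Every tested gene of the retinoid and CDX list but DHRS3 with the mimic was called. The CDX genes were too low to be tested. CDX1 had means of 0.362 FPKM (siRNA table) and 0.442 (miRNA table), and CDX2 and CDX4 were at or near the lowest listed value. With LncND siRNA 6 of 11 rose and 5 fell (median 0.15), where 66.9% of all genes were called, 36.6% up and 30.3% down (median 0.024). With the mimic 2 rose and 8 fell (median -0.46), where 63.3% were called, 24.6% up and 38.6% down (median -0.062). CRABP2, a carrier of retinoic acid in the cell, rose from 13.9 to 20.5 FPKM with LncND siRNA (0.53 ± 0.050, adjusted p 7.90e-06) and fell from 57.0 to 13.2 with the mimic (-2.04 ± 0.056, adjusted p 1.70e-08). RARB, a receptor gene that is itself induced by retinoic acid, rose from 4.93 to 7.90 FPKM (0.58 ± 0.047) and fell from 9.92 to 6.94 (-0.46 ± 0.065). DHRS3, which reduces retinal, rose from 0.584 to 2.09 FPKM with LncND siRNA (0.96 ± 0.075, adjusted p 2.07e-06). Its control mean was under 1 FPKM, and it passed the filter through the treated libraries. RARG fell in both (-0.68 ± 0.038 and -1.46 ± 0.053), CRABP1 fell by 1.27 with the mimic, and GDF11, a signal that promotes posterior HOX expression in the trunk, fell in both (-0.35 ± 0.040 and -0.76 ± 0.053). Of the 21 genes listed, 8 (siRNA table) and 7 (miRNA table) had means under 0.1 FPKM, and the part of retinoid genes in the HOX changes was not tested.

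Other homeobox genes of trunk neural and sympathetic cells moved in both directions. With LncND siRNA 5 of 23 tested rose and 10 fell (median -0.12), beside 36.6% and 30.3% of all genes (median 0.024). With the mimic 10 rose and 8 fell (median 0.072), beside 24.6% and 38.6% (median -0.062). TLX2 had the largest rise with LncND siRNA, from 46.7 to 87.5 FPKM (0.89 ± 0.042, adjusted p 8.20e-08), followed by MSX2 (0.65 ± 0.048) and HMX1 (0.56 ± 0.056). ZEB2 (-0.42 ± 0.051) and ISL1 (-0.36 ± 0.038) fell. With the mimic, PRRX2 (-0.97 ± 0.088), SIX4 (-0.91 ± 0.093) and PHOX2A (-0.71 ± 0.045) fell most, and SATB1 (0.55 ± 0.053), IRX5 (0.52 ± 0.073) and LHX9 (0.47 ± 0.077) rose most. SIX4 passed the filter through its controls, with 1.79 FPKM against 0.484 with the mimic. Members of this list thus moved both ways, and the lists were not tested against each other.

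Most noradrenergic markers were expressed, and most listed markers of other cells had means under 1 FPKM. The 16 noradrenergic neuroblastoma genes summed to 2185 to 2255 FPKM with scrambled siRNA and 3476 to 3478 with scrambled miRNA, and to 2824 to 2931 and 3610 to 3624 in the treated libraries. Of 15 tested, 8 rose and 6 fell with LncND siRNA (median 0.42, against 0.024 over all genes, of which 36.6% rose and 30.3% fell). With the mimic 8 rose and 5 fell (median 0.23, against -0.062, with 24.6% and 38.6% of all genes). The exception was TH, which encodes the rate-limiting enzyme of catecholamine synthesis and stood at 0.0390 to 0.438 FPKM over all libraries. The 10 Schwann and glial genes summed to 3.75 to 3.93 FPKM in scrambled siRNA and 6.85 to 7.21 in LncND siRNA libraries, and to 4.76 and 5.63 against 3.69 and 3.72 with the mimic. The only one tested, S100B, rose from 3.06 to 5.92 FPKM with LncND siRNA (0.77 ± 0.044) and fell from 3.92 to 2.84 with the mimic (-0.35 ± 0.091). ERBB3, below the filter, went from 0.165 to 0.423 FPKM with LncND siRNA and from 0.331 to 0.199 with the mimic. Means under 0.1 FPKM were found in 7 (siRNA table) and 6 (miRNA table) of the 10, with SOX10 at most at 0.0477 in a library. The 10 endothelial and blood genes summed to at most 1.05 FPKM in any library, with 0 tested and HBB at 0.001 on average in both tables. The 10 epithelial genes summed to 1.49 to 1.65 and 4.28 to 4.66 FPKM with scrambled and LncND siRNA, and to 2.17 and 2.25 against 1.72 and 1.80 with the mimic. CLDN4 rose from 0.621 to 2.17 FPKM with LncND siRNA (0.96 ± 0.070), and passed the filter through the treated libraries. EPCAM (0.447 to 1.12 FPKM), KRT18 (0.182 to 0.544) and KRT19 (0.0914 to 0.381), below the filter, stood above all controls in every LncND siRNA library. In the other listed epithelial genes these groups overlapped. The part of such cells in the HOX changes was not tested. In bulk RNA, fewer cells of a type and less RNA per cell cannot be told apart.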

How the data were processed

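The authors deposited FPKM values as 2 tables, with 6 siRNA and 4 miRNA libraries, and each library was grouped by its labels. Per the labels' protocols, stranded poly(A) libraries (TruSeq) were made from MirVana-isolated RNA. Per the submitters' processing notes, TopHat (listed as 1.0.0), Cufflinks and hg19 are named. The sources used here give no annotation, strand setting or earlier filter. Both tables held 25275 rows each. The 1304 rows that lie off the assembled chromosomes were dropped, and a repeated name kept its row with the highest mean. Status words stood in place of values in 274 rows of each table and in some libraries of 18 and 8 more rows. Genes so left without a value, such as CUX1 in the siRNA table, were not tested.

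No counts were used. Depth was estimated from the steps between low FPKM values at 25.7 to 44.5 M fragments (siRNA table) and 13.9 to 37.5 M (miRNA table), so that a 2-kb transcript at 1 FPKM had 27.7 to 89.1 fragments. FPKM is scaled to each library's total: LncND siRNA replicate 1 summed to 1678230 against 428238 to 478709 in the others, and to 434299 over rows of 300 bp or longer.

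FPKM was tested as log2(FPKM + 1), which understates the change of low genes, with limma 3.58.1 (lmFit, eBayes with trend) in R 4.3.3, separately for each table. A gene was tested where its mean over the table's libraries reached 1 FPKM. Some genes, such as DHRS3 and CLDN4 with LncND siRNA and SIX4 with the mimic, thus passed only through their higher group. The 2-sided p-values were adjusted by Benjamini-Hochberg over all genes tested, with a threshold of 0.05. The script was tested on simulated data. Nothing in the labels says that replicates are separate cultures, and p-values then reflect only the spread among these libraries, possibly technical. The HOX genes and the lists (TALE cofactors, HOX chromatin regulators, retinoid and CDX inputs, cluster noncoding and flanking genes, other homeobox genes, and 4 marker lists) were chosen with earlier results of these data known. Every HOX gene that reached a mean of 1 FPKM in either table was named, with every library's value where it was called, and up to 3 called genes per direction, list and comparison by size of change. Noncoding rows were named from 1 FPKM. Some genes that this rule would name are not reported here.

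Coordinates of rows are hg19, from the tables. Sequences are from RefSeq and GENCODE release 29 (GRCh38) and were matched by symbol. Alternatives were other pseudocounts (0.1, 0.5), filters, scalings, row choices and spread estimates, a replicate block and leaving out each library.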

Additional observations from a re-analysis of the deposited data

How the results depend on the processing

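The counts of HOX genes called rose, fell or passed for the difference stayed within 1.5 times of 8, 8 and 11 under every alternative run, with 6 to 8, 7 to 10 and 11 when 1 library was left out. The exception was the count of HOX genes that fell with LncND siRNA, which went from 0 to 1 with no filter on low values (HOXC11, -0.14, adjusted p 0.0321). The labels do not say whether replicate numbers pair the samples, and the correlations that follow cannot decide it. Same-numbered deviations from the group means correlated at 0.07, 0.21 and -0.05 in the siRNA table. In the miRNA table they correlated at 0.13, where 2 libraries a group force both pairs to the same value. Leaving out a library of the miRNA table leaves an arm with 1 library, which is then assumed to vary like the other arm. With a replicate block 8 HOX genes rose with LncND siRNA and 8 fell with the mimic. With quantile normalization 4175 genes passed with a negative difference, against 2717. HOXC6 lost its call with LncND siRNA also with no filter (adjusted p 0.0502), median-ratio scaling (0.0690), rescaling to rows of 300 bp or longer (0.0740) and a spread over all 10 libraries (0.0668), and HOXD10 with quantile normalization (0.090, adjusted p 0.291).

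Changes near 0 that were not called took the other sign under some settings. With LncND siRNA these were HOXC5 with pseudocounts of 0.1 (-3.8e-05) and 0.5 (-1.4e-05), median-ratio scaling (-0.025), quantile normalization (-0.053), rescaling (-0.0039) and without 1 library (-0.048 and -0.045, range to 0.040). HOXC10 gave -0.020, -0.13 and -0.0027 under those 3 scalings and -0.078, -0.040 and -0.053 without 1 library (range to 0.093). HOXD11 gave -0.0044 and -0.13 under the former 2 scalings and -0.053 and -0.018 without 1 library (range to 0.058), and HOXD13 gave -0.11 with quantile normalization. With the mimic, median-ratio scaling and quantile normalization gave 0.026 and 0.024 for HOXC4 and 0.033 and 0.051 for HOXD4. Without 1 library the mimic gave up to 0.0060 and 0.012 for HOXC4 (range from -0.10), -0.022 and -0.049 for HOXC6 (range to 0.16), 0.0045 for HOXD3 (range from -0.29), 0.014 for HOXD4 (range from -0.063) and -0.018 for HOXD9 (range to 0.063). For the difference, those scalings gave -0.011 and -0.0053 (HOXC6) and -0.031 and -0.090 (HOXD3), and leaving out 1 library gave -0.026 for HOXC6 (range to 0.19) and -0.0085 and -0.10 for HOXD3 (range to 0.20). The cause was not tested. With 2 libraries a group in the miRNA table and 27.7 fragments or more per 2-kb transcript at 1 FPKM, small changes of genes near 1 FPKM may have been missed. How small a change could be detected at that level was not estimated.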
